A study of Homo sapiens with 8 samples.

Results

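The genes described here are 45 regulators of pre-mRNA splicing: 12 SR proteins, 3 SR-like regulators, 20 heterogeneous nuclear ribonucleoproteins (hnRNPs) and 10 regulators of tissue-type exons. They were taken by gene symbol from a list chosen with earlier results of these data known. Each of the 45 symbols matched 1 of the 60646 rows of the deposited count table. Their levels were compared in MDA-MB-231, a triple-negative breast cancer cell line, between 4 wild-type samples and 4 knockout samples (written DOT1L/+ KO in one label, with the genotype given as DOT1L knockout). Both groups grew in DMEM with serum and were harvested a day after plating, and the guide RNA was aimed at exon 1 of DOT1L. It is not stated whether the knockout is 1 clone, how many alleles were edited, or if the samples of a group were separate cultures, so p-values cover only the spread among the samples at hand, and that spread may be technical.

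SR proteins carry RNA recognition motifs and a tail rich in arginine and serine, and mostly promote the use of exons whose enhancers they bind. hnRNPs coat nascent transcripts and often act against SR proteins at the same exons, and many members of both families limit their own level through an exon that sends the transcript to nonsense-mediated decay. PTBP, RBFOX, MBNL, CELF and QKI proteins set exon choice by tissue and state, and QKI and RBFOX2 are known for their part in the exon programme of mesenchymal cells such as this line. DOT1L methylates histone H3 at lysine 79 over transcribed genes, and the series title concerns how it affects MYC and Mondo, transcription factors, and their turnover on chromatin.

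Sequencing of ribosome-depleted total RNA gave 40103408 to 50031412 counts per sample. DOT1L itself fell from 109 ± 8.52 to 84.7 ± 5.91 CPM (library-scaled counts, trimmed-mean normalised; SD, n = 4 per group), so that the log2 change was -0.37 (SE 0.06, adjusted p = 2.83e-05). Unless limma, DESeq2 or a permutation test is named, adjusted p-values are from the quasi-likelihood test of edgeR on 19877 genes (Benjamini-Hochberg), and a gene is said to have risen or fallen only where it is below 0.05. Of 8 mesenchymal markers of the line, 2 rose (VIM by 0.40 on the log2 scale, and SPARC) and 3 fell. A further 2 did not pass and TWIST1 had 0 counts throughout. On library totals, without the trimmed-mean factor, their summed level was 5635 to 5990 CPM in wild-type and 6417 to 6930 in the knockout. That factor was 0.946 to 0.996 in wild-type and 1.02 to 1.03 in the knockout, and with it these sums overlap between the groups. In trimmed-mean CPM the mean of VIM went from 2941 to 3871, while AXL fell from 1237 to 1003 and FN1 from 357 to 309. Of 10 epithelial and luminal markers, 4 rose (among them KRT8 by 0.80 and KRT18 by 0.33), 1 fell, 2 did not pass and 3 were too low to test, CDH1 with 0 or 1 count in each wild-type library and 7 to 14 in each knockout one. Their summed level on library totals went from 653 to 722 CPM in wild-type to 903 to 1097 in the knockout, mostly from KRT8 and KRT18. On the same scaling endothelial markers summed to at most 9.56 CPM (KDR changed by -5.60 in edgeR) and blood cell markers to at most 1.38 CPM. The part of these shifts in the results was not tested. In bulk RNA, fewer cells with a transcript and less of it per cell cannot be told apart. Wild-type replicate 3 stood apart in these genes: it was the highest wild-type sample for 29 of the 44 regulators tested, against 32.3% of all tested genes.

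Splicing regulators as a group were lower in the knockout, by small amounts. Of the 44 tested, 22 fell, 1 rose and 21 did not pass, where 23.6% of all tested genes fell and 23.9% rose. The list was not independent of these data, and no test of it as a set was run. The change was negative for 36 of the 44, against 49.6% of all genes, and the median log2 change was -0.12, against 0.00 over all genes. All 4 knockout values lay below all 4 wild-type values for 23 regulators and above them for 1, where the shares over all genes were 22.1% and 21.3%. The hnRNPs had 12 lower, 1 higher and 7 not passed of 20, and the tissue-type regulators 6 lower and 4 not passed of 10. The SR proteins moved least, with 2 lower and 9 not passed of 11. SRSF12 had 0 counts in each of the 8 libraries, which allows up to 3 counts a library (0.0600 to 0.0748 CPM), and was not tested.

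The size of this fall depended on the scaling of the libraries. Library totals and upper-quartile scaling moved the median of all genes up to 0.07 and that of the regulators to -0.06. With either of them 16 regulators fell and 3 rose, where 18.8% and 18.6% of all genes fell and 29.7% and 30.3% rose. Of the 22 that fell, 16 fell under each of the scalings and with DESeq2 (25 lower and 1 higher, where 16.6% and 16.7% of the genes it tested fell and rose). DESeq2 tested 28376 genes, a wider set than the other shares use. Of the 19877 genes tested in edgeR, 4561 fell and 4190 rose with DESeq2. With the replicate number as a block 25 fell and 2 rose, against 26.1% and 26.6% of all genes. Without wild-type replicate 3, 23 fell and 2 rose, and without knockout replicate 1, 18 fell and 2 rose. Shares over all genes for these 2 fits are not given, so the counts are not set against all genes.

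**Figure D1:**
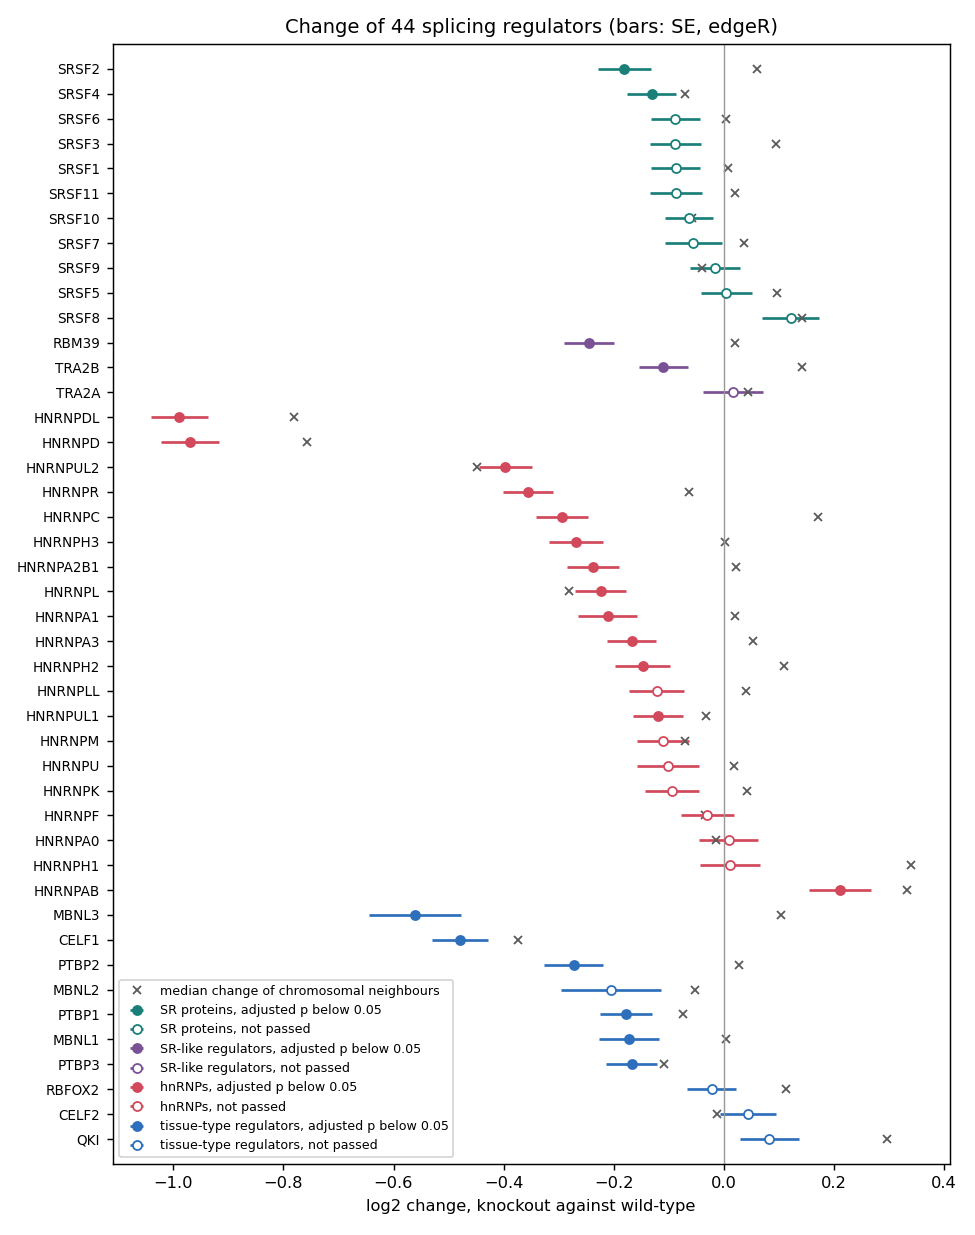
Log2 change of each of the 44 tested regulators in the knockout against wild-type (points, with SE from edgeR; filled where adjusted p was below 0.05), by family, with the median change of its chromosomal neighbours as a cross. HNRNPDL (-0.99) and HNRNPD (-0.97) lie far to the left with their neighbours, HNRNPAB (0.21) is the filled point on the right, and most SR proteins are open points near 0.

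HNRNPD and HNRNPDL showed the largest falls among the regulators. HNRNPD (ENSG00000138668, also called AUF1, a protein that also binds AU-rich elements and governs mRNA decay) lies on chromosome 4 at chr4:82352498-82374503, and its relative HNRNPDL (ENSG00000152795) at chr4:82422564-82430408, both on the minus strand of hg38 and 48.1 kb apart. HNRNPD stood at 300.3, 293, 336 and 290.2 CPM in wild-type replicates 1, 2, 3 and 5 and at 149, 151, 159 and 163 CPM in the knockout replicates of the same numbers. HNRNPDL stood at 307, 284, 338 and 295 CPM in wild-type and at 157, 155, 151 and 155 CPM in the knockout. The groups were far from overlapping for both genes. The log2 changes were -0.97 (SE 0.05, adjusted p = 2.94e-12) and -0.99 (SE 0.05, adjusted p = 1.85e-12), so that the mean level fell by 48.9% and 49.6%.

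The genes around this pair were lower as well. Of the 50 tested genes nearest to HNRNPD, 25 on either side, 36 fell, 3 rose and 11 did not pass, and their median deviation differed by -0.76 between the groups. These neighbours reach over 10.5 Mb, and 47 of the 50 are also neighbours of HNRNPDL. When each sample's neighbour median was subtracted and the values were tested with limma, the change of HNRNPD was -0.21 (adjusted p = 0.00387) and that of HNRNPDL was -0.21 (adjusted p = 0.0125). Here and below, that test takes the median as given and covers the spread among samples, not the spread among neighbours. The number of copies of this stretch of DNA was not measured, and its part in the result was not tested.

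A shared sequence feature of several regulators was searched in their promoters, since the series concerns MYC and Mondo, whose dimers bind the E-box CACGTG. The motif reads the same on both strands and was searched in the 250 bases before each RefSeq start (GRCh38.p14). Of the 45 regulators 39 had a promoter entry, and 7 of these 39 (17.9%) held CACGTG, against 7.73% of 27305 genes. The 27305 were all genes with a promoter entry, tested or not. They were not matched to the regulators in level or base content, so the shares are not of like genes. Genes with several starts had more sequence searched, and counted by promoter entry the shares were 10.96% (8 of 73) and 6.34%. The 7 regulators were HNRNPA3, HNRNPD, HNRNPDL, HNRNPH2, HNRNPH3, HNRNPM and MBNL1. The MBNL1 site, 211 bases before a start and within an intron of GENCODE 29, is not printed. Nor is that of HNRNPM, which did not pass and has its motif 42 bases before a start. Sites of 5 of the 6 that fell follow, to give the setting of the motif, 30 bases each on the gene's strand, with the E-box in capitals.
HNRNPD: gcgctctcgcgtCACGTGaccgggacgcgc
HNRNPDL: ggagcccgagacCACGTGggcaggaaaagg
HNRNPA3: cggaaaacgcgtCACGTGacgactggcccc
HNRNPH3: tgccggtcgaacCACGTGgggccctttccg
HNRNPH2: ccgagagttgctCACGTGaccgagatctca
The HNRNPD site (chr4:82374001-82374030, minus strand) has its motif 27 bases before the RefSeq start, within an intron of HNRNPD in GENCODE 29. The HNRNPDL site (chr4:82430572-82430601, minus strand) has its motif 127 bases before a start and outside the GENCODE 29 gene, and a further CACGTG lies 156 bases before another start of the gene. The HNRNPA3 site (chr2:177212711-177212740) and the HNRNPH3 site (chr10:68331631-68331660), both on the plus strand, have the motif 71 and 50 bases before a RefSeq start and overlap an exon of GENCODE 29. The HNRNPH2 site (chrX:101408168-101408197, plus strand) has its motif 42 bases before the start, outside the GENCODE 29 gene, and a further one stands 9 bases before it. Of the 7 regulators with the motif 6 fell and 0 rose, with a median change of -0.17 (-0.99 to -0.11). Of 31 tested regulators without it 13 fell and 1 rose, with a median of -0.10 (-0.56 to 0.21). Over all tested genes 23.6% fell and 23.9% rose, and the shares among all genes with the motif are not given. HNRNPD and HNRNPDL, both among the 6, are 48.1 kb apart, and 36 and 37 of their 50 neighbours fell too. The members had been chosen with earlier results known, and the difference between regulators with and without the motif was not tested. A match is a description and not evidence of binding.

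HNRNPC, HNRNPA2B1 and HNRNPA1, abundant proteins of the hnRNP particle, fell. HNRNPC (ENSG00000092199), which binds uridine tracts and masks cryptic exons, stood at 711, 715, 738 and 679 CPM in wild-type and 567, 609, 558 and 585 CPM in the knockout. HNRNPA2B1 (ENSG00000122566), a core particle protein that also sorts RNA for transport, stood at 871, 871, 922 and 868 CPM in wild-type and 718, 767, 742 and 768 CPM in the knockout. For both genes the highest knockout sample was below the lowest wild-type sample. The log2 change was -0.29 for HNRNPC (SE 0.05, adjusted p = 3.07e-05) and -0.24 for HNRNPA2B1 (SE 0.05, adjusted p = 0.000272). HNRNPC lies among genes that were higher, with 24 of 50 neighbours risen and 1 fallen, and relative to them its change was -0.46 (adjusted p = 3.40e-07).

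HNRNPA1 (ENSG00000135486), a repressor of exons and the classic shuttling hnRNP, stood at 285, 266, 317 and 262 CPM in wild-type and 249.6, 237, 242 and 247 CPM in the knockout. HNRNPA3, its close relative, stood at 196, 203, 212 and 202 CPM in wild-type and 175, 186, 183 and 180.3 CPM in the knockout. The groups did not overlap in either gene, and the log2 changes were -0.21 (adjusted p = 0.00289) and -0.17 (adjusted p = 0.00337). Both have many processed copies in the genome: 76 rows named as copies of HNRNPA1 held 73.0% as many counts as HNRNPA1 itself, and 16 rows named as copies of HNRNPA3 held 55.3%. How multiply mapped reads were counted is not stated in the sources, and the levels of these 2 genes are uncertain. The rows named as copies differed by -0.25 for HNRNPA1 and -0.08 for HNRNPA3 on the log2 scale of library totals, in the same direction as their parent genes. HNRNPL, HNRNPC and HNRNPK had copies at 19.8%, 14.1% and 11.8% of their own counts, and every other regulator at 3.22% or less.

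HNRNPR (ENSG00000125944), which binds along mRNA in nucleus and cytoplasm, had the largest fall among hnRNPs outside chromosomes 4 and 11. It stood at 317, 316, 336 and 309 CPM in wild-type and 241, 256, 248 and 254 CPM in the knockout, with no overlap (log2 change -0.35, SE 0.05, adjusted p = 1.32e-06). HNRNPH3 and HNRNPH2, members of the family that binds runs of guanine, both fell. HNRNPH3 stood at 155, 159, 171 and 162 CPM in wild-type and 124, 140.4, 132 and 140.5 CPM in the knockout (log2 change -0.27, adjusted p = 0.000122). HNRNPH2 stood at 44.5, 47.4, 48.3 and 45.01 CPM in wild-type and 40.7, 44.5, 41.3 and 40.9 CPM in the knockout (log2 change -0.15, adjusted p = 0.0206). The HNRNPH2 groups touched, with knockout replicate 2 just under the lowest wild-type value, and it no longer passed when wild-type replicate 2 (adjusted p = 0.0518) or knockout replicate 3 (0.0590) was left out, or knockout replicate 1 or 5 (both just over the threshold). With library totals the adjusted p of HNRNPH2 was 0.154.

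HNRNPL, which binds CA repeats, and HNRNPUL2, a relative of the scaffold protein HNRNPU, fell with their surroundings. HNRNPL stood at 257, 246, 268 and 240.3 CPM in wild-type and 221, 217, 217 and 211 CPM in the knockout, a log2 change of -0.22 (adjusted p = 0.000378). HNRNPUL2 stood at 46.2, 46.8, 44.3 and 46.9 CPM in wild-type and 35.0, 34.5, 35.9 and 34.5 CPM in the knockout, a log2 change of -0.40 (adjusted p = 5.86e-07). Both sets of groups were apart, but 25 of 50 neighbours of HNRNPL and 37 of 50 of HNRNPUL2 fell too, and relative to them the changes were 0.06 and 0.05 (adjusted p = 0.319 and 0.425). HNRNPUL1, the relative of HNRNPUL2, stood at 518, 491, 532 and 497 CPM in wild-type and 478, 469.5, 462 and 466 CPM in the knockout (log2 change -0.12, adjusted p = 0.0358). That call did not survive leaving out wild-type replicate 1 (0.0848) or knockout replicate 2, 3 or 5 (0.0770, 0.101 and 0.0730), with library totals (0.211) and relative to neighbours (0.158).

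HNRNPAB, a relative of HNRNPD, was the one regulator that rose. It stood at 453, 414, 511 and 428 CPM in wild-type and 532, 516, 515 and 528 CPM in the knockout (log2 change 0.21, SE 0.06, adjusted p = 0.00400). The gap between the groups was narrow, since wild-type replicate 3 reached nearly the lowest knockout sample. Of its 50 neighbours 32 rose and 0 fell by the same edgeR test, and relative to them HNRNPAB stood at -0.12 (adjusted p = 0.161). HNRNPH1, which lies 1403 kb further along chromosome 5, stood at 778 ± 45.7 CPM in wild-type and 784 ± 43.3 CPM in the knockout (log2 change 0.01, adjusted p = 0.884). Its neighbours were also higher, 31 of 50 with 1 lower, and relative to them its change was -0.33 (adjusted p = 0.000124).

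The other hnRNPs did not pass. HNRNPLL, a relative of HNRNPL, missed the threshold narrowly (log2 change -0.12) although its groups did not overlap, and it passed with the replicate block (adjusted p = 0.0262), on dropping wild-type replicate 3 (0.0368) or knockout replicate 5 (0.0289), and relative to neighbours (-0.16, adjusted p = 0.0137). HNRNPM stood at -0.11 (adjusted p = 0.0586, or 0.0266 with the replicate block and 0.0272 without wild-type replicate 2). The abundant HNRNPU (-0.10) and HNRNPK (-0.09) and the guanine-binding HNRNPF (-0.03) had overlapping groups, and HNRNPA0 stood at 0.01. HNRNPK fell relative to its neighbours (-0.13, adjusted p = 0.0296).

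Among the SR proteins, SRSF2 and SRSF4 fell. SRSF2 (ENSG00000161547, chr17:76734115-76737374, minus strand), which stays in the nucleus and binds exonic enhancers, stood at 341, 355, 383 and 371 CPM in wild-type and 317, 327, 305 and 329.8 CPM in the knockout. Its groups did not overlap, and the log2 change was -0.18 (SE 0.05, adjusted p = 0.00396). SRSF2 overlaps MFSD11 on the opposite strand, and whether counting used strand is not stated in the sources. In all, 13 of the tested regulators overlap a tested gene on the opposite strand. Overlap was taken over whole gene spans, introns included, so it need not reach an exon. Of the 13, 10 were called, against 23 of all 44 tested regulators and 9458 of 19877 genes. The share called among all genes with such an overlap is not given. The 10 were SRSF2, HNRNPA2B1 (NFE2L3 and CBX3), HNRNPA3, HNRNPAB (PHYKPL), HNRNPD (HNRNPD-DT), HNRNPH3 (PBLD and RUFY2), HNRNPUL1 (TGFB1), MBNL1, MBNL3 and CELF1 (PTPMT1 and NDUFS3). SRSF4, one of the longer SR proteins, stood at 98.4, 96.6, 96.3 and 103 CPM in wild-type and 86.3, 90.3, 89.9 and 93.4 CPM in the knockout (log2 change -0.13, adjusted p = 0.0193). The SRSF4 call was lost with library totals (0.204), relative to neighbours (0.291), or on leaving out wild-type replicate 5 (0.0600) or knockout replicate 1 (0.0552) or 3 (0.0501).

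The other SR proteins lay between -0.09 and 0.12. SRSF1, the founding member that also acts in translation and decay, had 164 ± 6.25 CPM in wild-type and 155 ± 4.09 in the knockout (log2 change -0.09, adjusted p = 0.118), and SRSF3, an SR protein that couples splicing to export, at 393 ± 16.3 and 369 ± 11.9 CPM (-0.09, adjusted p = 0.133). SRSF6 had no overlap between groups but did not pass (-0.09, adjusted p = 0.114). SRSF11 (-0.09), SRSF10 (-0.06), SRSF7 (-0.06), SRSF9 (-0.02) and SRSF5 (0.00) had overlapping groups. SRSF8, a retrogene copy related to SRSF2, had the highest value of the family, 52.1 ± 2.24 against 56.6 ± 3.36 CPM (0.12, adjusted p = 0.0598), and passed as a rise with the replicate block (0.0301), with library totals (0.00412), and when wild-type replicate 3 (0.0144) or knockout replicate 1 (0.0292) was dropped. Relative to its neighbours, of which 24 of 50 rose, SRSF8 stood at -0.02 (adjusted p = 0.776). SRSF3 fell relative to its neighbours (-0.18, adjusted p = 0.00350).

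Of the SR-like regulators, RBM39 and TRA2B fell. RBM39 (ENSG00000131051), a relative of the splicing factor U2AF2 and the target of the molecular glue indisulam, stood at 464, 489.9, 463 and 484 CPM in wild-type and 393, 409, 392 and 411 CPM in the knockout, with no overlap (log2 change -0.24, SE 0.05, adjusted p = 0.000126). TRA2B, a transformer-2 protein that binds purine-rich enhancers, stood at 338, 329, 349 and 333 CPM in wild-type and 302, 311, 311 and 326 CPM in the knockout (log2 change -0.11, adjusted p = 0.0495). The TRA2B call was narrow: it was lost without any 1 of wild-type replicates 1, 3 and 5 (0.0893, 0.0629 and 0.0571) or knockout replicates 1, 2 and 3 (0.120, 0.105 and 0.115) and with library totals (0.318), but relative to its neighbours the change was -0.25 (adjusted p = 0.000267). TRA2A stood at 0.02 (adjusted p = 0.828).

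**Figure D2:**
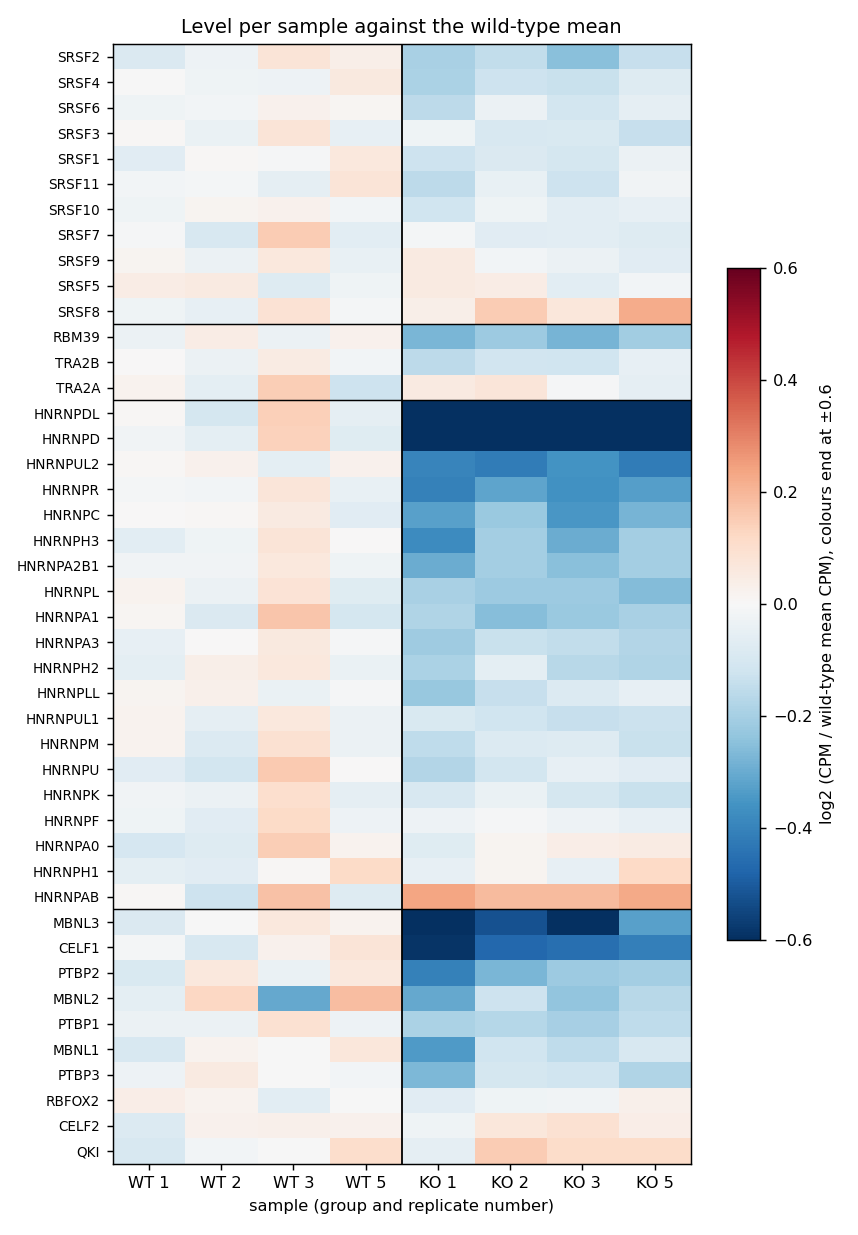
Level of each tested regulator (rows, by family) in each of the 8 samples (columns) as log2 of its CPM over the wild-type mean, with colours ending at 0.6 in either direction. The 4 knockout columns are blue for 23 rows with no overlap, darkest for HNRNPD and HNRNPDL, and wild-type replicate 3 is the reddest wild-type column for many rows.

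All 3 polypyrimidine tract-binding proteins, which repress exons next to pyrimidine tracts, fell. PTBP1 (ENSG00000011304) stood at 605, 605, 659.7 and 606 CPM in wild-type and 543, 549, 539.8 and 557 CPM in the knockout (log2 change -0.18, adjusted p = 0.00354). PTBP2, the form typical of neurons, stood at 56.3, 62.6, 58.2 and 62.5 CPM in wild-type and 45.2, 49.5, 51.6 and 52.1 CPM in the knockout (log2 change -0.27, adjusted p = 0.000265). PTBP3 stood at 175, 186, 179 and 177 CPM in wild-type and 149, 166, 165 and 158 CPM in the knockout (log2 change -0.17, adjusted p = 0.00536). No knockout sample reached a wild-type sample in any of them. Relative to neighbours PTBP2 fell (-0.30, adjusted p = 7.23e-05), while PTBP1 and PTBP3 stood at -0.10 and -0.06 (0.137 and 0.379), and the PTBP3 call was also lost with library totals (0.0558).

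The muscleblind proteins switch exons during development and are best known for their sequestration in myotonic dystrophy. MBNL3 (ENSG00000076770, chrX:132369317-132489968, minus strand), the least abundant of the tested regulators per length, stood at 19.1, 20.2, 21.2 and 20.6 CPM in wild-type and 11.5, 14.1, 13.3 and 16.2 CPM in the knockout. Its groups were well apart, with a log2 change of -0.56 (SE 0.08, adjusted p = 1.19e-05), and of its neighbours 17 of 50 rose and 12 fell, with a relative change of -0.67 (adjusted p = 2.36e-06). MBNL1 stood at 329, 357, 352 and 369 CPM in wild-type and 278, 324, 317 and 329 CPM in the knockout (log2 change -0.17, adjusted p = 0.0127), and its groups overlapped at the edge. The MBNL1 call was lost without knockout replicate 1 (0.0581) and with library totals (0.0967). MBNL2 stood at 43.96, 49.9, 37.0 and 52.1 CPM in wild-type and 37.0, 42.0, 38.9 and 40.8 CPM in the knockout and did not pass (log2 change -0.21, adjusted p = 0.0811). Wild-type replicate 3 held the low wild-type value of MBNL2, and without it the change was -0.29 (adjusted p = 0.000421), with the replicate block adjusted p = 0.00490.

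CELF1 (ENSG00000149187), which opposes MBNL proteins at many exons and also promotes mRNA decay, stood at 326, 307, 335 and 347 CPM in wild-type and 218, 237, 240.1 and 247 CPM in the knockout. The groups were far apart (log2 change -0.48, SE 0.05, adjusted p = 8.85e-08), and 27 of 50 neighbours on chromosome 11 fell too, with a relative change of -0.11 (adjusted p = 0.131). CELF2, its relative, changed by 0.04 (adjusted p = 0.515), RBFOX2 stood at 218 ± 6.66 and 215 ± 6.17 CPM (-0.02, adjusted p = 0.714) and QKI at 271 ± 15.4 and 287 ± 17.8 CPM (0.08, adjusted p = 0.215). QKI passed as a rise with library totals (0.14, adjusted p = 0.0279) and fell relative to its neighbours (-0.21, adjusted p = 0.00172), of which 24 of 50 rose and 1 fell. RBFOX2 fell relative to its neighbours (-0.14, adjusted p = 0.0280).

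Several of these genes lie among neighbours that also moved. Relative to their neighbours 21 regulators fell, 0 rose (0 also at an unadjusted p below 0.05 in limma) and 23 did not pass, where 22.2% of all genes fell and 22.1% rose by the same test. Of the 22 that fell without this adjustment 15 also fell with it, and 6 fell with it alone. The 15 include HNRNPD and HNRNPDL, whose edgeR changes lay within the spread of their region. The neighbour median lay beyond 0.25 on the log2 scale for 8 regulators: HNRNPD, HNRNPDL, HNRNPUL2, CELF1 and HNRNPL in lower surroundings and HNRNPAB, HNRNPH1 and QKI in higher ones. Among the 29 whose neighbour median lay within 0.1 of 0, 12 fell and 0 rose in edgeR. Of all tested genes, whatever their neighbours, 23.6% fell and 23.9% rose in edgeR, and the shares among genes with such a neighbour median are not given.

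**Figure D3:**
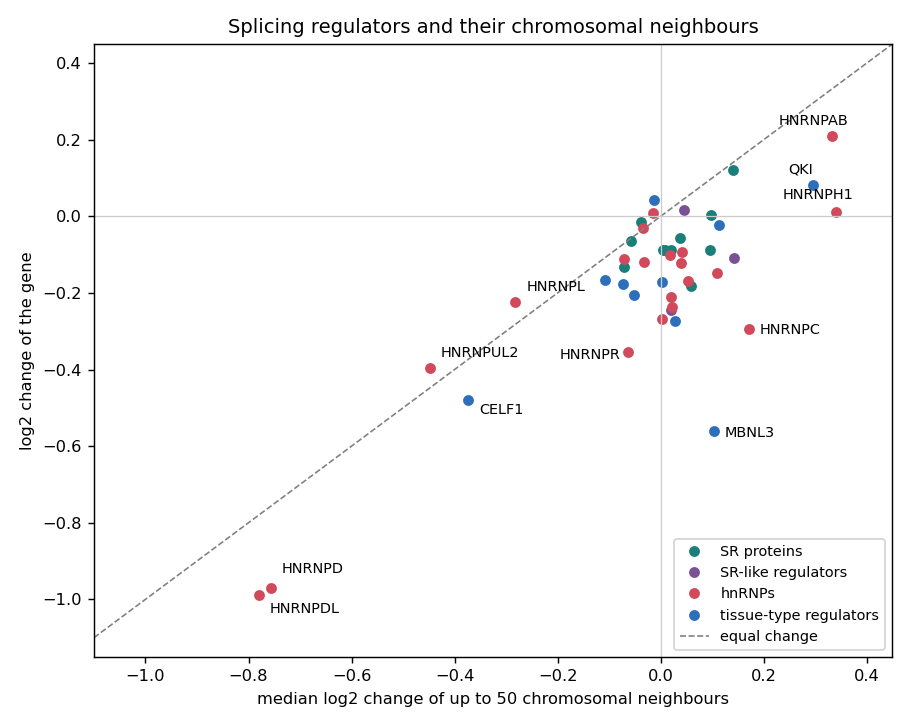
Log2 change of each tested regulator (vertical) against the median log2 change of up to 50 neighbouring tested genes on its chromosome (horizontal), with the dashed line where both are equal. HNRNPD, HNRNPDL, HNRNPUL2, CELF1 and HNRNPL lie to the left with lower neighbours, while MBNL3 (-0.56) and HNRNPC (-0.29) lie below it with neighbours at 0.10 and 0.17.

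The order of levels was set per length of exons (CPM per kilobase). That length is the annotated one of the whole gene, and which transcripts were present was not measured. The order and the family sums below therefore depend on the annotation, and need not be the order of transcript numbers. HNRNPU had the highest wild-type mean in CPM, 917, but ranked 19 with its 22512 bases. HNRNPAB, at 451 CPM, has 2144 bases. Per length HNRNPAB stood highest in wild-type at 210.6 ± 19.9 (SD, n = 4 here and for the values that follow). HNRNPK came next at 158 ± 7.87, then HNRNPF at 133 ± 7.48 and SRSF2 at 120.1 ± 6.03. The lowest were PTBP2 at 4.63 ± 0.244, CELF2 at 3.14 ± 0.118 and MBNL3 at 1.66 ± 0.0727. HNRNPC and HNRNPA2B1, at 97.3 ± 3.30 and 95.3 ± 2.80, differed by less than their spread, as did HNRNPDL, HNRNPA1 and SRSF3, at 55.9 ± 4.22, 55.5 ± 4.88 and 55.2 ± 2.30. In the knockout the top 4 kept their order, while HNRNPDL moved from rank 12 to 25, HNRNPD from 16 to 31 and CELF1 from 26 to 30. The sum of these length-scaled levels over the hnRNPs was 1275, 1237, 1384 and 1255 in wild-type and 1171, 1195, 1171 and 1190.5 in the knockout, a difference in means of -8.26%. For the SR proteins it was 493, 495, 519 and 503 in wild-type and 474, 481, 464 and 478 in the knockout (-5.62%), and for the tissue-type regulators the difference was -11.7%. With this scaling no knockout sum of these 3 families reached the lowest wild-type sum. With library totals, an alternative chosen after the data were seen, the differences were -4.17% for the hnRNPs, -1.47% for the SR proteins and -7.88% for the tissue-type regulators, and the SR protein groups overlapped.

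The ratio of related genes within a sample does not depend on the scaling of the library. Of 16 pairs set out, 15 could be tested with an exact two-sided permutation test of 4 against 4 samples, whose smallest possible p is 0.0286. At least 9 of the 15 pairs would have had to reach it for any to pass after adjustment, so the design could hardly give a call. Of the 15 pairs 4 reached it (adjusted p = 0.107 each, exact permutation test) and 0 passed. CELF1/CELF2 changed by -0.52 ± 0.05 (SE) on the log2 scale, from 3.25 ± 0.09 to 2.73 ± 0.05 (SD). MBNL1/MBNL3 rose from 4.11 ± 0.05 to 4.51 ± 0.11, a difference of 0.39 ± 0.06 (SE). SRSF2/SRSF8 differed by -0.30 ± 0.04 and HNRNPUL1/HNRNPUL2 by 0.28 ± 0.05 (SE). The groups did not overlap in these 4 pairs. PTBP1/PTBP2, whose balance marks the neuronal switch, differed by 0.10 ± 0.07 (SE, p = 0.257, exact permutation test), and HNRNPD/HNRNPDL by 0.02 ± 0.04 (p = 0.771, exact permutation test).

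**Figure D4:**
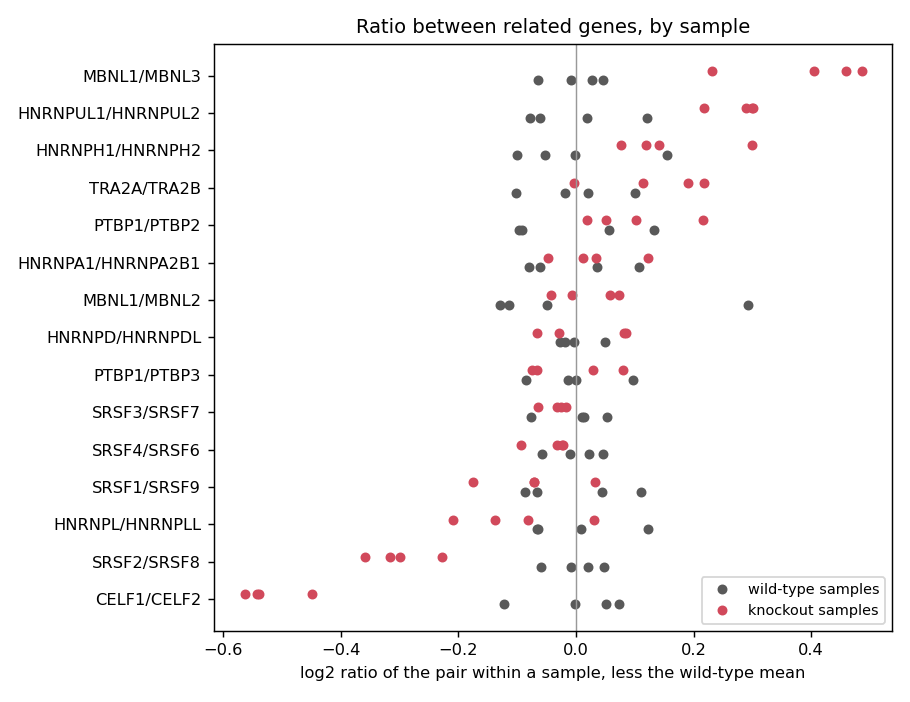
Log2 ratio of each pair of related genes within a sample, less the wild-type mean of that pair (horizontal), for the 4 wild-type and 4 knockout samples. CELF1/CELF2 and SRSF2/SRSF8 lie wholly to the left in the knockout and MBNL1/MBNL3 and HNRNPUL1/HNRNPUL2 wholly to the right, while HNRNPD/HNRNPDL stays around 0.

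The genes that act with these regulators were taken from lists of known pathway members. Of 10 tested kinases and importers of SR proteins, 5 fell, 2 rose and 3 did not pass, where 23.6% of all genes fell and 23.9% rose. SRPK1, which loads SR proteins with phosphate in the cytoplasm, went from 404 ± 8.32 down to 335 ± 5.08 CPM (log2 change -0.27, adjusted p = 2.65e-05). The nuclear kinases CLK1 (-0.20) and CLK2 (-0.18) fell, while CLK4 rose from 26.4 ± 1.32 to 36.3 ± 0.794 CPM (0.46) and CLK3 rose by 0.15. Relative to neighbours CLK4 stood at 0.14 (adjusted p = 0.0341) and CLK3 at 0.01 (0.867). With library totals 2 of these genes fell and 2 rose, against 18.8% and 29.7% of all genes.

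Of 57 other RNA-binding regulators tested, 24 fell, 7 rose and 26 did not pass, with a median change of -0.10, where 23.6% of all genes fell and 23.9% rose. The 3 rises with the smallest adjusted p were in genes of low level. KHDRBS2 had 3 or 4 counts in each wild-type library and 43 to 71 in each knockout one (log2 change 3.95), RBFOX3, a neuronal member of the RBFOX family, rose from 21 to 54 counts a library to 145 to 206 (log2 change 2.17), and RBM47 rose from 0.949 ± 0.265 to 3.22 ± 0.772 CPM. KHDRBS3 fell from 41.4 ± 2.23 to 28.0 ± 1.79 CPM (-0.57). RBM5 (-0.42) and RBM6 (-0.54), tumour-suppressor candidates that adjoin on chromosome 3, fell, and relative to their neighbours stood at 0.07 and -0.05 (adjusted p = 0.260 and 0.430). Of 80 core spliceosome proteins, 26 fell, 11 rose and 43 did not pass, with a median of -0.06 (0.01 with library totals or upper-quartile scaling). That is 32.5% lower and 13.8% higher, against 23.6% and 23.9% of all genes, and with library totals 21 fell and 15 rose, against 18.8% and 29.7%. LSM6, of the U6 ring, fell from 21.2 ± 0.972 to 10.9 ± 0.844 CPM (-0.96), PLRG1 by 0.69 and SF3B3 by 0.37 on the log2 scale, while LSM8 (0.30), PRPF6 (0.27) and SNRPA1 (0.23) rose. Relative to neighbours LSM6 still fell (-0.20, adjusted p = 0.0380, limma), while PLRG1 and SF3B3 stood at 0.09 and -0.03 (0.169 and 0.634).

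Of 20 nonsense-mediated decay and exon junction factors, 6 fell, 4 rose and 10 did not pass, with a median of 0.04. Both counts are near the shares over all genes, 23.6% lower and 23.9% higher. With library totals 9 rose and 2 fell, against 29.7% and 18.8% of all genes. UPF3B (-0.48), SMG9 (-0.25) and MAGOH (-0.22) fell and SMG6 (0.31) and MAGOHB (0.25) rose. Relative to neighbours MAGOHB turned to a fall, at -0.33 (adjusted p = 0.000606, limma). The others kept their direction, with UPF3B at -0.44, SMG9 at -0.39, MAGOH at -0.22 and SMG6 at 0.25. GENCODE 29 lists at least 1 transcript of the decay type for 31 of the 44 tested regulators (70.5%), among them 11 of 11 SR proteins, against 42.5% of 13398 tested protein-coding genes. Counts per gene add up all transcripts, so the share of such transcripts was not measured.

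**Figure D5:**
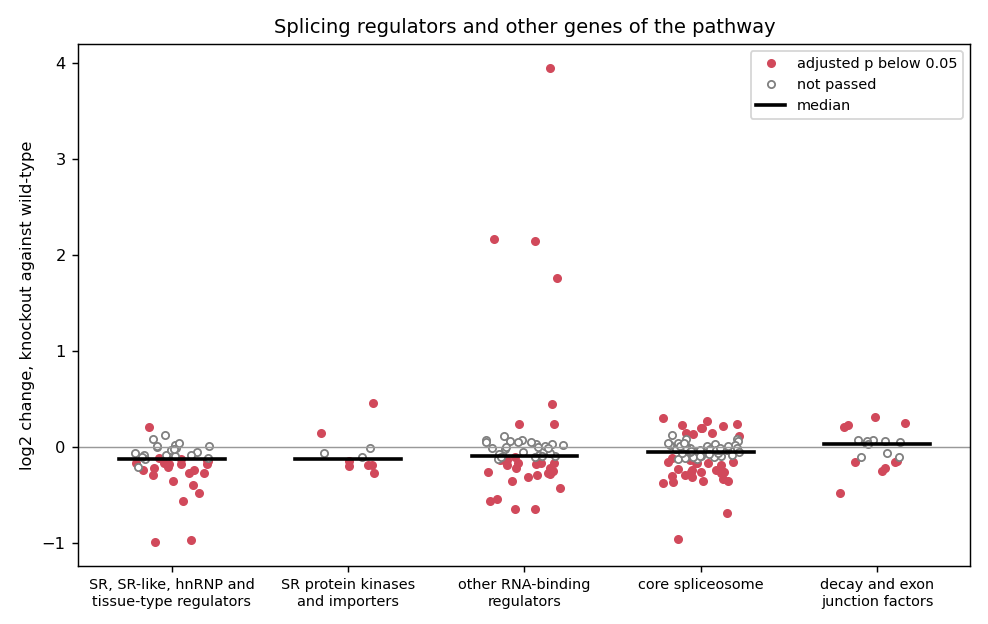
Log2 change of each tested gene (points; red where adjusted p was below 0.05) in the 44 regulators and 4 lists of other splicing-related genes, with the median of each list as a bar. The medians run from -0.12 in the regulators and in the kinases and importers to 0.04 in the decay and exon junction factors, and the highest point is KHDRBS2 (3.95).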

How the data were processed

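RNA-seq counts of 8 samples were used. The authors deposited whole-number counts per Ensembl gene and variance-stabilized expression on a log2 scale. Per the submitters' processing notes, the tools named are FastQC 0.11.7, STAR 2.6.0c, DESeq2 1.23.10 and featureCounts of Subread 1.6.2, on hg38; the notes give no order or role. The annotation release, strand setting and treatment of multiply mapped reads are not given in the sources used here. Symbols came from a table that matched 60333 of 60646 identifiers, and coordinates, exon lengths and transcript types from GENCODE 29 (58459 matched, GRCh38). Where a symbol had 2 identifiers, the one with more counts was taken.

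Counts were tested in R 4.3.3 with edgeR 4.0.16 (filterByExpr, TMM scaling, robust quasi-likelihood fit, group as the single term, all genes fitted). Neighbour-adjusted log2 CPM (prior count 2, 25 tested genes on either side) and the deposited log2 values were tested with limma 3.58.1, and DESeq2 1.42.0 was an alternative. The procedure was tested on simulated data. Pair ratios used an exact permutation test (scipy 1.17.1). Deviations from group means correlated at 0.376, 0.154, 0.153 and 0.391 between same-numbered samples of the 2 groups over 13212 genes, each above 0.1, so same-numbered samples deviated together. The tests reported carry no block, and the fit with the replicate number as a block is given as an alternative. The members and lists were chosen with earlier results of these data known.

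Values in every sample are given for called members whose groups did not overlap, up to 20 by size of change. Other members are given by their change, and from each further list up to 3 rises and 3 falls with the smallest adjusted p. Values of MBNL1, MBNL2, HNRNPUL1 and TRA2B in every sample were added after their values were seen. A gene that this rule would name is not reported here.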

Additional observations from a re-analysis of the deposited data

Results flagged for a closer look

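Of 88 groups of 4 values checked (44 regulators in 2 groups), 4 had a sample set apart from the other 3 by most of the group's range, and chance flags about 1 group in 20. HNRNPA2B1 stood at 922 CPM in wild-type replicate 3, against 868 to 871 CPM in the other wild-type samples. PTBP1 stood at 659.7 CPM in wild-type replicate 3, against 605 to 606 CPM. HNRNPH2 stood at 44.5 CPM in knockout replicate 2, against 40.7 to 41.3 CPM in the other knockout samples. CELF2 stood at 32.5 CPM in wild-type replicate 1, against 35.0 to 35.2 CPM.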

How the results depend on the processing

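The number of regulators that fell was 22 and lay between 16 and 25 under the other settings, and between 18 and 23 when each replicate was left out in turn. The number that rose was 1. It was 3 with upper-quartile scaling and with library totals, 2 when only genes averaging 1 or more in log2 CPM were tested and with the replicate block, 0 relative to neighbours, and 1 to 2 with a replicate left out. The number with no overlap was 24 (54.5%, against 43.4% of all genes). It was 19 with upper-quartile scaling, 17 with library totals and 25 on the deposited log2 values, for which shares over all genes are not given. With a replicate left out it was 25 to 28, and fewer samples make overlap rarer by construction. With upper-quartile scaling and with library totals 2 kinases and importers fell, 12 other RNA-binding regulators rose, 8 and 9 decay factors rose and 2 fell. Of all genes 30.3% and 29.7% rose and 18.6% and 18.8% fell with these scalings. With upper-quartile scaling 17 core spliceosome genes fell. Relative to neighbours 1 kinase or importer and 2 decay factors rose, where 22.1% of all genes rose. With a replicate left out, kinases and importers numbered 1 to 2 higher and 3 to 5 lower, core spliceosome genes 7 to 14 higher, and decay factors 4 to 7 higher and 3 to 7 lower. Shares over all genes with a replicate left out are not given. Subtracting the neighbour median turned the sign of 10 regulators, 5 of them called in neither fit (SRSF5, SRSF8, SRSF9, TRA2A and HNRNPF) and the others HNRNPAB (-0.12), HNRNPH1 (-0.33), QKI (-0.21), HNRNPL (0.0594) and HNRNPUL2 (0.0516). The cause of these shifts was not tested. Of the 22 that fell, 12 fell in each of the 17 settings. The replicate block added calls for SRSF8, HNRNPLL, HNRNPM and MBNL2 and removed none among the regulators. With 3 samples against 4, or 4 pairs, the exact test of a pair ratio cannot pass, so these were given no test, and with a prior count of 0.5 or on the deposited log2 values 0 of 15 pairs passed, which the design nearly fixes. Counts per gene do not show exon use, and differences under about 0.1 on the log2 scale were near the SE of 0.04 to 0.09.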
